A study of Mus musculus with 5 samples.

Results

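The 33 genes described here handle lipids: 19 take up, activate, store, desaturate or make fatty acids, and 14 move, sense or make cholesterol. They were taken as a named list, by symbol, from 27998 genes in the count matrices of sorted γδ T cells. All 33 symbols were found. The list itself uses no measured value, but members and lists were chosen with earlier results of these data known. Fatty acid genes were kept apart from cholesterol genes throughout. Cells were sorted from C57BL/6 mice aged 8 weeks, as Vγ4 cells of ear skin and as Vγ6 cells of ear skin, thymus and peripheral lymph node (pLN). A further Vγ6 library mixed cells of TcrdH2BeGFP ear skin, ACT-FLPe thymus and TcrdCreER pLN, from animals of 8 to 10 weeks, and its cells carry no label of tissue. Each of the 5 groups was 1 droplet library made with the Chromium 3' v2 kit, which counts each captured transcript once through its unique molecular identifier (UMI). The number of mice behind a library was not given, and skin went through 75 minutes of collagenase at 37 °C and thymus cells through 30 minutes of antibody and complement lysis, so tissue and preparation cannot be told apart.

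Fatty acids enter cells by diffusion and with the help of the scavenger receptor CD36, bind carriers of the FABP family inside, and are coupled to coenzyme A by acyl-CoA synthetases before they can be burned in mitochondria, built into membranes or stored in droplets coated by perilipins. Cholesterol is made from acetyl-CoA through mevalonate and squalene by enzymes whose genes are switched on by SREBP-2, the product of Srebf2, when sterols are scarce, while the INSIG proteins hold SREBP-2 back when sterols are plentiful. Dividing T cells are known to raise both branches, and IL-17-producing γδ T cells are known to take up and store more lipid than interferon-γ-producing ones.

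Levels are given as CPM, the UMIs of a gene per 1e6 UMIs of all kept cells of a library, so a CPM value mixes how many cells hold a transcript with how much each holds. Kept cells numbered 687 to 2517 per library and their summed UMIs 793463 in skin Vγ6, the shallowest, to 6607432 in thymus Vγ6, the deepest, so that a count of 0 allows up to 3.78 and 0.454 CPM in these libraries. A kept cell held a median of 1059 UMIs in skin Vγ6, the lowest, and 2156 in thymus Vγ6, the highest. Mitochondrial UMIs put 216 of 1394 skin Vγ4 and 120 of 812 skin Vγ6 barcodes over the limit, beside 32 of 2549 in thymus Vγ6 and 2 of 1461 in pLN Vγ6. Libraries shared 0 to 9 cell barcodes per pair. The 10 measured genes typical of IL-17-producing γδ T cells summed to 6792 CPM in skin Vγ4, 6095 in skin Vγ6, 977 in thymus Vγ6, 3965 in pLN Vγ6 and 4436 in the pool, and none of the 10 was at 0 in any library. The receptor constant genes that would check the sort were not analysed here. Cells with at least 2 UMIs of 10 division genes made up 10.5% of skin Vγ4, 6.11% of skin Vγ6, 55.4% of thymus Vγ6 and 64.8% of pLN Vγ6 cells. With 1 library per group there were no replicates and no test. A call of higher or lower needed a ratio of 2-fold or more, an exact 95% interval without 1 in it, and 20 CPM or more in the library with more. Intervals, in parentheses after each ratio, cover counting error only, and the calls describe these libraries.

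Of the 33 genes, 15 were called in at least 1 of 4 comparisons and 18 in none. Skin Vγ6 over pLN Vγ6 gave 3 members higher and 3 lower, where 16.0% and 30.4% of the 5770 genes at 20 CPM or more were called higher and lower. Thymus Vγ6 over pLN Vγ6 gave 4 higher and 2 lower, beside 11.8% and 11.3% of 5703 genes. Skin Vγ6 over thymus Vγ6 gave 0 higher and 8 lower, beside 13.7% and 24.5% of 5656 genes. Skin Vγ4 over skin Vγ6 gave 3 higher and 0 lower, beside 4.26% and 3.18% of 4973 genes. Members with at least 20 CPM numbered 12, 15, 16 and 14 in the same order. The median log2 ratio of all 33 members was -0.12, 0.17, -0.34 and 0.44 on the log2(CPM + 1) scale, against -0.38, -0.13, -0.27 and -0.05 over the genes compared. The member medians include genes under 20 CPM, which the pseudocount draws toward no change, and the others do not. The medians therefore cover unlike sets and give no measure of how far the members depart from all genes. Scaling by TMM factors moved the median over all genes of skin Vγ6 over pLN Vγ6 to -0.08, and raised the higher part of all calls to 47.1%, against 34.4% without. That part became 51.2% with median-of-ratios factors in skin Vγ6 over thymus Vγ6, against 35.8%, and 67.5% with TMM in skin Vγ4 over skin Vγ6, against 57.3%. The changes below are relative to the library totals, and no member named here as higher or lower changed sign under either scaling.

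**Figure D1:**
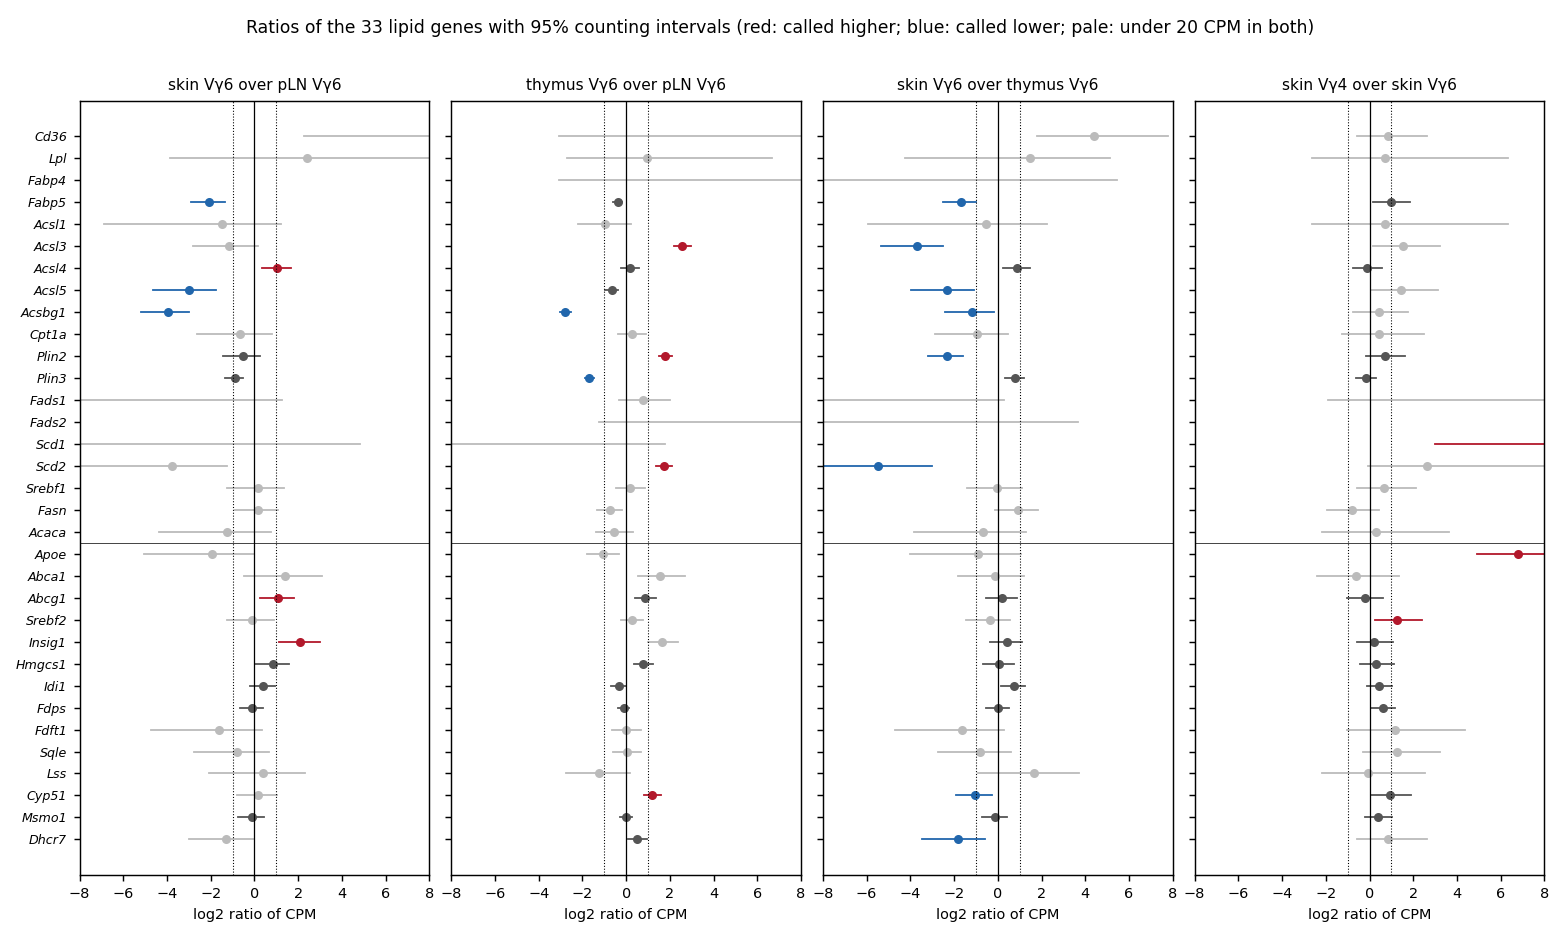
Ratio of CPM on a log2 axis for the 33 lipid genes (rows, fatty acid genes above the line) in the 4 comparisons (panels), first-named library over the second. Points are ratios and bars exact 95% counting intervals, cut at the panel edge and without a point where a library had 0 UMIs. Red genes were called higher and blue ones lower, pale ones lie under 20 CPM in both libraries, and dotted lines mark 2-fold. The 8 blue rows of skin Vγ6 over thymus Vγ6 have no red row beside them.

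Of the 5 acyl-CoA synthetases, which couple fatty acids to coenzyme A, 4 were called between Vγ6 libraries. Acsbg1 and Acsl5 shared an order among the Vγ6 tissues, highest in pLN and lowest in skin. Acsl3 and Acsl4 each had another. Acsbg1, the bubblegum-type synthetase (ENSMUSG00000032281, chr9:54604877-54661870, GRCm38), was highest in pLN Vγ6. It was at 13.4 CPM in skin Vγ4, 10.1 in skin Vγ6, 23.0 in thymus Vγ6, 158 in pLN Vγ6 and 113 in the pool. Skin Vγ6 was 15.6-fold (7.89 to 36.4) and thymus Vγ6 6.86-fold (5.74 to 8.23) lower than pLN Vγ6, and skin Vγ6 was 2.28-fold (1.13 to 5.38) lower than thymus Vγ6. The last of these rests on 8 UMIs in skin Vγ6, and its call ended under 4 alternatives.

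Acsl3, a synthetase of the endoplasmic reticulum and of lipid droplets (ENSMUSG00000032883, chr1:78657825-78707743), was highest in thymus Vγ6. Its level was 18.1 CPM in skin Vγ4, 6.30 in skin Vγ6, 82.9 in thymus Vγ6, 14.0 in pLN Vγ6 and 13.2 in the pool. Thymus Vγ6 was 5.92-fold (4.52 to 7.88) higher than pLN Vγ6, and skin Vγ6 13.2-fold (5.61 to 40.7) lower than thymus Vγ6, from 5 UMIs. The intervals of skin Vγ4 and pLN Vγ6, its neighbours in this order, overlapped.

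Acsl5, found on mitochondria and endoplasmic reticulum (ENSMUSG00000024981, chr19:55251938-55297720), was low in skin. It had 17.1 CPM in skin Vγ4, 6.30 in skin Vγ6, 31.6 in thymus Vγ6, 50.1 in pLN Vγ6 and 45.9 in the pool. Skin Vγ6 was 7.95-fold (3.35 to 24.7) lower than pLN Vγ6 and 5.02-fold (2.12 to 15.6) lower than thymus Vγ6, from 5 UMIs in skin, and the call against thymus ended under 2 alternatives. Acsl4, which prefers arachidonic acid (ENSMUSG00000031278, chrX:142317993-142390535), went the other way, at 34.1 CPM in skin Vγ4, 36.5 in skin Vγ6, 20.1 in thymus Vγ6, 17.8 in pLN Vγ6 and 22.6 in the pool. Its ratio of 2.05 (1.29 to 3.19) in skin Vγ6 over pLN Vγ6 lay at the threshold, and the call ended under 8 alternatives. Acsl1, the synthetase of fat and muscle in textbooks, had 1 to 15 UMIs per library.

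Among the uptake genes only Fabp5, the fatty acid carrier of skin and lymphoid cells (ENSMUSG00000027533, chr3:10012548-10016607), reached 20 CPM. It stood at 39.3 CPM in skin Vγ4, 20.2 in skin Vγ6, 65.5 in thymus Vγ6, 85.3 in pLN Vγ6 and 27.7 in the pool. Skin Vγ6 was 4.23-fold (2.57 to 7.48) lower than pLN Vγ6 and 3.25-fold (1.98 to 5.74) lower than thymus Vγ6. In pLN Vγ6, 339 of the 359 Fabp5 UMIs were in cells with 2 or more UMIs of the division genes, a class that depends on depth and holds 80.8% of all UMIs of the library. Those cells held Fabp5 at 99.6 CPM (89.3 to 111) and the other cells at 24.8 (15.1 to 38.3). With dividing cells left out of both libraries the log2 ratio of skin Vγ6 over pLN Vγ6 was -0.31, with the barcodes of over 3 times the median depth left out -0.51, and with cells holding 2 or more UMIs of other cell types left out -0.41, against -2.03 with all kept cells, and the call ended each time. The rule for other cell types depends on depth as well, and left out 630 of 1458 pLN Vγ6 and 69 of 687 skin Vγ6 cells. In pLN Vγ6, 571 cells met it through the list of dendritic cell genes. Skin Vγ6 over thymus Vγ6 kept its Fabp5 call under all alternatives run.

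The other uptake genes were close to the floor. Cd36 had 22 UMIs in skin Vγ4, of which 12 were in 1 cell, 5 in skin Vγ6, 2 in thymus Vγ6, 0 in pLN Vγ6 and 6 in the pool. Lpl, the secreted lipase that frees fatty acids from lipoproteins, had 1 to 4 UMIs per library. Fabp4, the carrier of fat cells and of some resident memory T cells, had 2 UMIs in thymus Vγ6 and 0 elsewhere. At this depth no difference in these genes could be read.

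**Figure D2:**
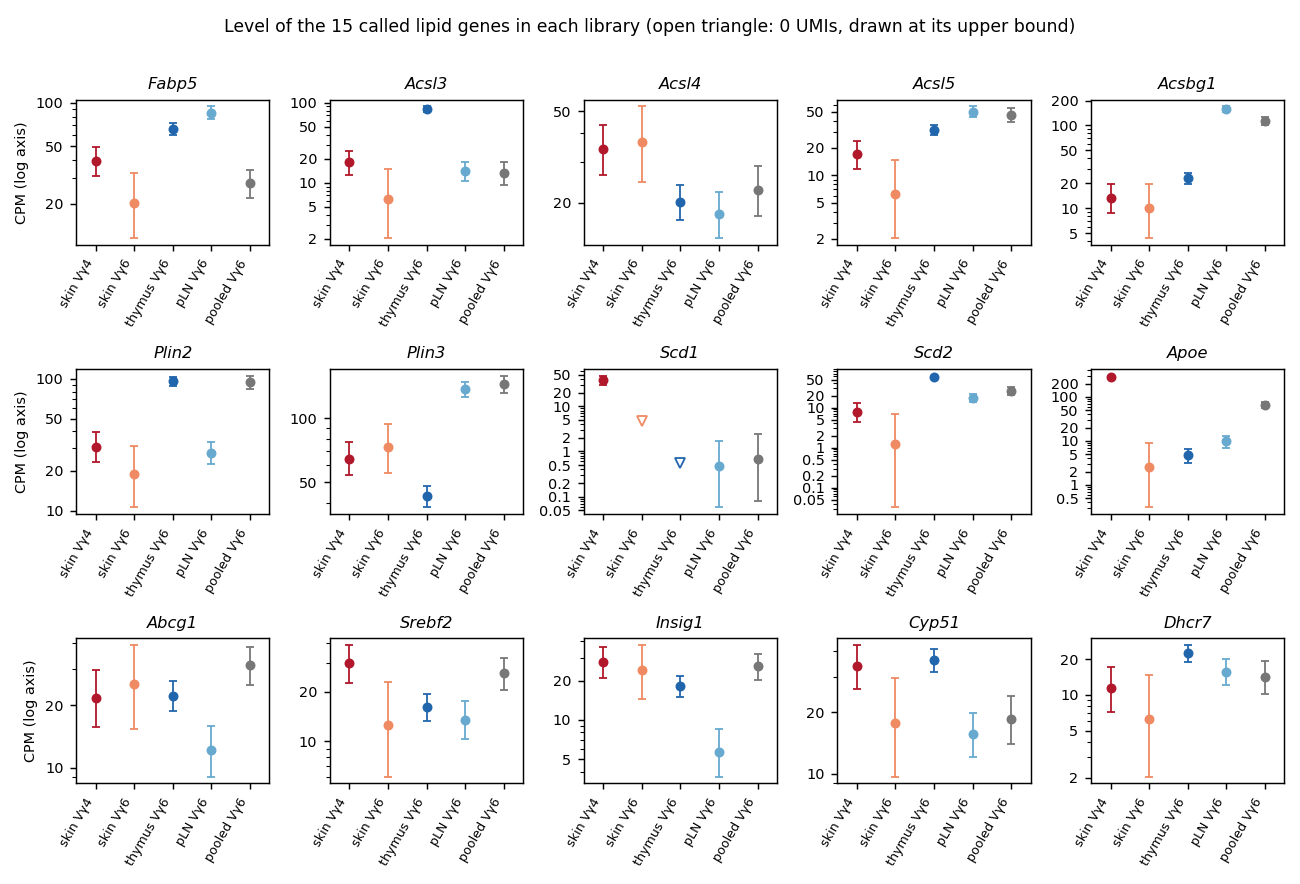
Level of the 15 called genes in CPM (log axes, each panel its own range) in the 5 libraries. Circles are levels and bars exact 95% Poisson intervals, and open triangles mark 0 UMIs at their upper bound. Acsbg1 is highest in pLN Vγ6 at 158 CPM, Acsl3 and Scd2 in thymus Vγ6 at 82.9 and 56.5 CPM, and Apoe in skin Vγ4 at 280 CPM.

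Lipid droplets are coated by perilipins, and the pair measured here ran in opposite directions between thymus and pLN. Plin2, the coat protein that rises with stored lipid in most cells (ENSMUSG00000028494, chr4:86648386-86670060), was at 30.5 CPM in skin Vγ4, 18.9 in skin Vγ6, 95.5 in thymus Vγ6, 27.5 in pLN Vγ6 and 93.9 in the pool. Thymus Vγ6 was 3.47-fold (2.84 to 4.26) higher than pLN Vγ6, and skin Vγ6 5.05-fold (3.04 to 9.08) lower than thymus Vγ6. Plin3, a coat of small and nascent droplets (ENSMUSG00000024197, chr17:56277476-56292873), was at 64.7 CPM in skin Vγ4, 73.1 in skin Vγ6, 42.8 in thymus Vγ6, 138 in pLN Vγ6 and 145 in the pool. Thymus Vγ6 was 3.21-fold (2.78 to 3.71) lower than pLN Vγ6. Skin Vγ6 lay between them, at 0.532 times pLN (0.399 to 0.697) and 1.71 times thymus (1.26 to 2.27), neither past 2-fold.

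Desaturases put double bonds into fatty acids. Scd2, a stearoyl-CoA desaturase prominent in brain (ENSMUSG00000025203, chr19:44293674-44306864), was also highest in thymus Vγ6, with 7.76 CPM in skin Vγ4, 1.26 in skin Vγ6, 56.5 in thymus Vγ6, 17.1 in pLN Vγ6 and 26.0 in the pool. Thymus Vγ6 was 3.30-fold (2.56 to 4.31) higher than pLN Vγ6. Skin Vγ6 held 1 UMI and thymus Vγ6 373, a 44.8-fold lower level in skin with an interval of 7.99 to 1774. Its neighbour Scd1 (ENSMUSG00000037071, chr19:44394455-44407879), the desaturase of sebaceous glands and liver, was nearly confined to 1 barcode of skin Vγ4, described below. Fads1 had 0 to 27 UMIs per library, and Fads2 4 in thymus Vγ6 and 0 in the other libraries. Scd1 and Scd2 are close paralogs, and reads shared between them could be split or dropped by the counting.

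Srebf1, Fasn, Acaca and Cpt1a, the members for fatty acid synthesis and oxidation, were called in no comparison. Srebf1, which encodes the regulator of fatty acid synthesis, was at 14.0 CPM in skin Vγ4, 8.82 in skin Vγ6, 8.93 in thymus Vγ6, 7.84 in pLN Vγ6 and 20.3 in the pool. Fasn, fatty acid synthase, stood between 6.75 and 15.1 CPM, and Acaca, acetyl-CoA carboxylase, between 2.52 and 8.11. Cpt1a, the gate to mitochondrial oxidation, lay between 5.04 and 11.5 CPM. With 2 to 64 UMIs per library these genes could show only large differences.

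Promoters of the members called in at least 2 of the 3 Vγ6 comparisons were read from RefSeq (GRCm38.p6, 250 bases before to 50 after the start site). Of the 33 members, 23 matched the table. The letters CCAAT, the site of the factor NF-Y, searched on both strands, were in 18 of these 23 (78.3%), against 41.1% of 27025 genes. The GC box GGGCGG was likewise in 78.3% of members, against 38.2% of all genes. A gene counted when any of its promoters matched. By promoter, CCAAT was in 19 of 30 of the members and 12289 of 32851 of all genes. The GC box was in 20 of 30 and 11714 of 32851. All genes here means every gene with a promoter listed, whatever its level in these libraries. The windows below show CCAAT or its reverse complement ATTGG in capitals with 30 bases on each side, 5′ to 3′ along the gene, for 5 of the 7 members called in at least 2 of these comparisons. Fabp5 and Scd2, the other members of the 7, had either no CCAAT match or no promoter in the table. A match is a description of letters, not a site in use.
Acsbg1: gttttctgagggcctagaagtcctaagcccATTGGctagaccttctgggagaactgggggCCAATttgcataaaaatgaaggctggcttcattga
Acsl3: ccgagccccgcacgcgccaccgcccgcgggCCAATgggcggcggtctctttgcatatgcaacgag
Acsl5: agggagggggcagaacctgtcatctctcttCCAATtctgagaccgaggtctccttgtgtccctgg
Plin2: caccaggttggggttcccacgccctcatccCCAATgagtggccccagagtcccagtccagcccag
Cyp51: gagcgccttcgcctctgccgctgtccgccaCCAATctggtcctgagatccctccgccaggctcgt
The windows lie at chr9:54661904-54661998 (minus strand), chr1:78657780-78657844 (plus), chr19:55253222-55253286 (plus), chr4:86670098-86670162 (minus) and chr5:4104692-4104756 (minus). Their motifs begin 83 and 53, 15, 117, 73 and 29 bases before the start site, and none overlapped another motif searched. The Acsl5 window lies within the gene as positioned above. These windows were printed because they hold the letters, and they come from pLN-high Acsbg1 and thymus-high Acsl3, Plin2 and Cyp51 alike.

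Cholesterol efflux genes code for ABCA1 and ABCG1, the pumps that load cholesterol onto lipoproteins, and for apolipoprotein E, which accepts it. Abcg1 (ENSMUSG00000024030, chr17:31057675-31117988) was at 21.7 CPM in skin Vγ4, 25.2 in skin Vγ6, 22.1 in thymus Vγ6, 12.1 in pLN Vγ6 and 31.1 in the pool. Skin Vγ6 over pLN Vγ6 was 2.08-fold (1.18 to 3.55), and this call ended under 7 alternatives. Abca1 stayed between 2.37 and 8.44 CPM. Apoe (ENSMUSG00000002985, chr7:19696109-19699188) was at 280 CPM in skin Vγ4, 2.52 in skin Vγ6, 4.69 in thymus Vγ6, 9.74 in pLN Vγ6 and 65.5 in the pool, so skin Vγ4 and the pool stood apart from the 3 Vγ6 tissue libraries.

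The 9 enzymes of cholesterol synthesis, summed, were nearly level among the Vγ6 libraries. They held 275 CPM (252 to 299) in skin Vγ4, 187 (158 to 219) in skin Vγ6, 213 (202 to 224) in thymus Vγ6, 188 (175 to 201) in pLN Vγ6 and 164 (150 to 180) in the pool. The summed ratio was 0.993 (0.827 to 1.18) in skin Vγ6 over pLN Vγ6, 1.13 (1.04 to 1.24) in thymus Vγ6 over pLN Vγ6 and 0.877 (0.735 to 1.04) in skin Vγ6 over thymus Vγ6. Skin Vγ4 over skin Vγ6 was 1.47 (1.23 to 1.78). The near equality of the Vγ6 libraries depended on which cells were counted. With dividing cells left out, skin Vγ6 over pLN Vγ6 was 1.30. With cells thinned to 800 UMIs, skin Vγ6 over pLN Vγ6 was 1.42 and thymus Vγ6 over pLN Vγ6 1.49. Cells under 800 UMIs were left out there, 125 in skin Vγ6 beside 562 thinned, 10 in thymus Vγ6 and 0 in pLN Vγ6.

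Single enzymes mostly kept within 2-fold. Cyp51, the lanosterol demethylase (ENSMUSG00000001467, chr5:4081145-4104746), was at 33.6 CPM in skin Vγ4, 17.6 in skin Vγ6, 36.0 in thymus Vγ6, 15.7 in pLN Vγ6 and 18.6 in the pool. Thymus Vγ6 was 2.30-fold (1.74 to 3.07) higher than pLN Vγ6, and skin Vγ6 2.04-fold (1.19 to 3.79) lower than thymus Vγ6, a call that ended under 7 alternatives. Dhcr7, the reductase of the final step (ENSMUSG00000058454, chr7:143823145-143848410), was at 11.4 CPM in skin Vγ4, 6.30 in skin Vγ6, 22.4 in thymus Vγ6, 15.7 in pLN Vγ6 and 14.2 in the pool. Skin Vγ6 was 3.55-fold (1.49 to 11.1) lower than thymus Vγ6, from 5 UMIs in skin, and the call ended under 6 alternatives. Fdps, which makes farnesyl diphosphate, ranged from 42.2 to 71.4 CPM, Idi1, the isomerase before it, from 19.9 to 57.9, Msmo1, a sterol demethylation enzyme, from 30.1 to 48.1, and Hmgcs1, which makes HMG-CoA, from 14.0 to 31.0, all highest in skin Vγ4. Without the 8 keratinocyte-like cells described below, Msmo1 in skin Vγ4 was at 28.3 CPM and Hmgcs1 at 23.5, against 36.5 and 25.2 in skin Vγ6. Fdft1, Sqle and Lss, the steps from farnesyl diphosphate to lanosterol, were under 12 CPM in every library.

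Each of the regulators Insig1 and Srebf2 was called in 1 comparison. Insig1, a sterol-sensitive brake on SREBP-2 (ENSMUSG00000045294, chr5:28071363-28078662), was at 27.9 CPM in skin Vγ4, 23.9 in skin Vγ6, 18.0 in thymus Vγ6, 5.70 in pLN Vγ6 and 25.7 in the pool. Skin Vγ6 was 4.20-fold (2.18 to 8.00) higher than pLN Vγ6, from 19 and 24 UMIs. Thymus Vγ6 over pLN Vγ6 was 3.16-fold (2.03 to 5.12), with both under 20 CPM and so no call. With a stricter filter on cells (at least 500 genes, at most 5% mitochondrial UMIs) skin Vγ6 kept 142 cells and 0 of these UMIs, which allows up to 15.4 CPM against 6.14 CPM in pLN Vγ6, so the call ended and no direction could be read. Srebf2 (ENSMUSG00000022463, chr15:82147181-82205379) was at 30.0 CPM in skin Vγ4, 12.6 in skin Vγ6, 16.2 in thymus Vγ6, 13.5 in pLN Vγ6 and 26.0 in the pool. Skin Vγ4 was 2.38-fold (1.21 to 5.22) higher than skin Vγ6, from 58 and 10 UMIs, and this call ended under 4 alternatives.

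The classical sterol regulatory element of SREBP-2, TCACNCCAC, searched on both strands of the same windows, was in 2 of 23 members (8.70%), against 1.44% of 27025 genes. They are shown because they are the only members with this SREBP-2 motif, in capitals with 30 bases on each side.
Hmgcs1: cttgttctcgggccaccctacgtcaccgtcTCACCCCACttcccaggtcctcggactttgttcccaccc
Acsl1: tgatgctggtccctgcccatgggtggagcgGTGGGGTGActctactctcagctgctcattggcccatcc
The Hmgcs1 window is chr13:119690184-119690252 (plus strand, motif 137 bases before the start) and the Acsl1 window chr8:46490860-46490928 (plus strand, motif on the opposite strand, 76 bases before). The Acsl1 window belongs to a start site inside the gene, which spans chr8:46471037-46536051. The Acsl1 window at the beginning of the gene held no such element. Hmgcs1 was at 25.2 CPM in skin Vγ6, 24.1 in thymus Vγ6 and 14.0 in pLN Vγ6, a ratio of 1.80 (1.03 to 3.03) in skin over pLN and 1.72 (1.27 to 2.36) in thymus over pLN. The DR4 and DR1 direct repeats, bound by liver X and PPAR receptors, were in no member window and in 0.0148% and 0.0481% of all genes.

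Genes of the same pathways outside the 33 were read as 40 fatty acid and 28 cholesterol genes. In skin Vγ6 over pLN Vγ6, 12 of the 40 fatty acid genes reached 20 CPM, of which 4 were called higher and 0 lower, beside 16.0% and 30.4% of all genes. Hilpda, an inhibitor of droplet lipolysis, was at 577 CPM in skin Vγ6 and 20.7 in pLN Vγ6, 27.9-fold (22.2 to 35.6) higher, and Dgat1, which makes triglyceride, 10.9-fold (8.16 to 14.7) higher. Elovl5, a fatty acid elongase, was 12.3-fold (9.58 to 16.0) and Slc25a20, the mitochondrial acylcarnitine carrier, 2.86-fold (1.91 to 4.24) higher. The droplet genes Hilpda and Dgat1 were thus higher in skin Vγ6 than in pLN Vγ6. Plin2 was not called in this comparison, with a ratio of 0.686 (0.372 to 1.18) from 15 UMIs in skin Vγ6.

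Of the 28 cholesterol genes 15 reached 20 CPM in the same comparison, with 1 called higher and 6 lower, beside the same 16.0% and 30.4%. Acat1, a thiolase of acetoacetyl-CoA, was 4.02-fold (2.77 to 6.05) lower, Pmvk, phosphomevalonate kinase, 6.93-fold (2.65 to 25.8), Lbr, a sterol reductase and lamin receptor, 3.31-fold (2.59 to 4.32) and Ebp, a sterol isomerase, 2.78-fold (2.00 to 3.97) lower in skin.

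Thymus Vγ6 over pLN Vγ6 had 5 of 13 measured fatty acid genes higher and 0 lower. Of 17 measured cholesterol genes 2 were higher and 3 lower, near the 11.8% and 11.3% of all genes. Dgat1 was 5.90-fold (4.61 to 7.64), Hilpda 5.65-fold (4.52 to 7.13), Elovl6 5.10-fold (3.30 to 8.24) and Elovl5 3.84-fold (3.07 to 4.86) higher. Mvk, mevalonate kinase, was 5.12-fold (3.34 to 8.19) higher, while Mvd was 2.58-fold (1.88 to 3.57) and Insig2 2.36-fold (1.76 to 3.20) lower. The enzymes of the pathway therefore did not move together.

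Skin Vγ6 over thymus Vγ6 had 3 of 14 measured fatty acid genes higher and 2 lower, and 1 of 17 cholesterol genes higher and 4 lower, beside 13.7% and 24.5% of all genes. Hilpda was 4.95-fold (4.40 to 5.56) and Elovl5 3.21-fold (2.72 to 3.77) higher, Elovl6 11.0-fold (3.02 to 91.9) and Acadl, an acyl-CoA dehydrogenase, 3.24-fold (2.03 to 5.52) lower. In the cholesterol list, Pmvk was 5.85-fold (2.25 to 21.7), Soat1, which esterifies cholesterol, 3.09-fold (1.79 to 5.87) and Acat1 2.39-fold (1.65 to 3.60) lower, and Insig2 2.70-fold (1.65 to 4.29) higher.

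Within the thymus library the members fell on different cells. Clusters were made without the 33 genes and the pathway lists, so their levels did not form the clusters. Cluster 6, with 651 of 2517 cells, had 8 of the γδ T17 markers and was led by Il22, Serpinb1a and Cd163l1, and may be called γδ T17-like. It held Plin2 at 207 CPM (184 to 232) against 65.4 in the rest of the library, Acsbg1 at 68.3 (55.3 to 83.4) against 10.8, and Plin3 at 88.9 (74.0 to 106) against 30.4. Hilpda and Dgat1 followed, at 309 and 223 CPM against 64.8 and 65.9. The same cluster held Acsl3 at 22.8 (15.6 to 32.1) against 99.2 CPM and Scd2 at 20.6 (13.8 to 29.6) against 66.1. Cluster 1, with 1253 cells led by Cpa3, Ccr9 and Plac8, had Acsl3 at 100.5 CPM and Scd2 at 72.9.

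Cluster 6 held 291 of the 631 Plin2 UMIs of thymus Vγ6, 32 of the 548 of Acsl3 and 29 of the 373 of Scd2. Outside it Plin2 stood at 65.4 CPM, beside 27.5 CPM in pLN Vγ6 as a whole. The cluster 6 levels of Acsl3 and Scd2 given above lay beside 14.0 and 17.1 CPM in pLN Vγ6 as a whole. With Cd163l1-positive cells compared alone, thymus Vγ6 over pLN Vγ6 had 4 members higher and 2 lower. Of all 5633 genes compared in that setting, 630 were higher and 597 lower. That choice kept 881 thymus cells, more than the 651 of cluster 6, so it does not describe cluster 6 alone. The third pattern was in cluster 3, 80 cells led by Ly6d, Dntt, Cd8b1 and Cd8a, 3 of them markers of αβ T cells or thymocytes, with a median of 4712 UMIs. There the 9 cholesterol synthesis enzymes summed to 496 CPM (430 to 569) against 194 in the rest, Idi1 stood at 117 against 19.8, Insig1 at 46.4 against 16.1 and Fabp5 at 188 against 57.4. Cluster 3 also had 7 of the 10 division genes as markers, with their list at 5833 CPM against 2511 in the library. Dividing thymus cells held the 9 enzymes at 234 CPM and Fabp5 at 75.7, the other cells 168 and 44.2. The part of division in the cluster 3 levels was not tested. The αβ T cell or thymocyte list was at 7.56 CPM in skin Vγ6, 150 in thymus Vγ6 and 8.07 in pLN Vγ6, with 3, 0 and 1 of its 5 genes at 0, and its part in the thymus levels was not tested beyond the alternative that leaves such cells out.

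**Figure D3:**
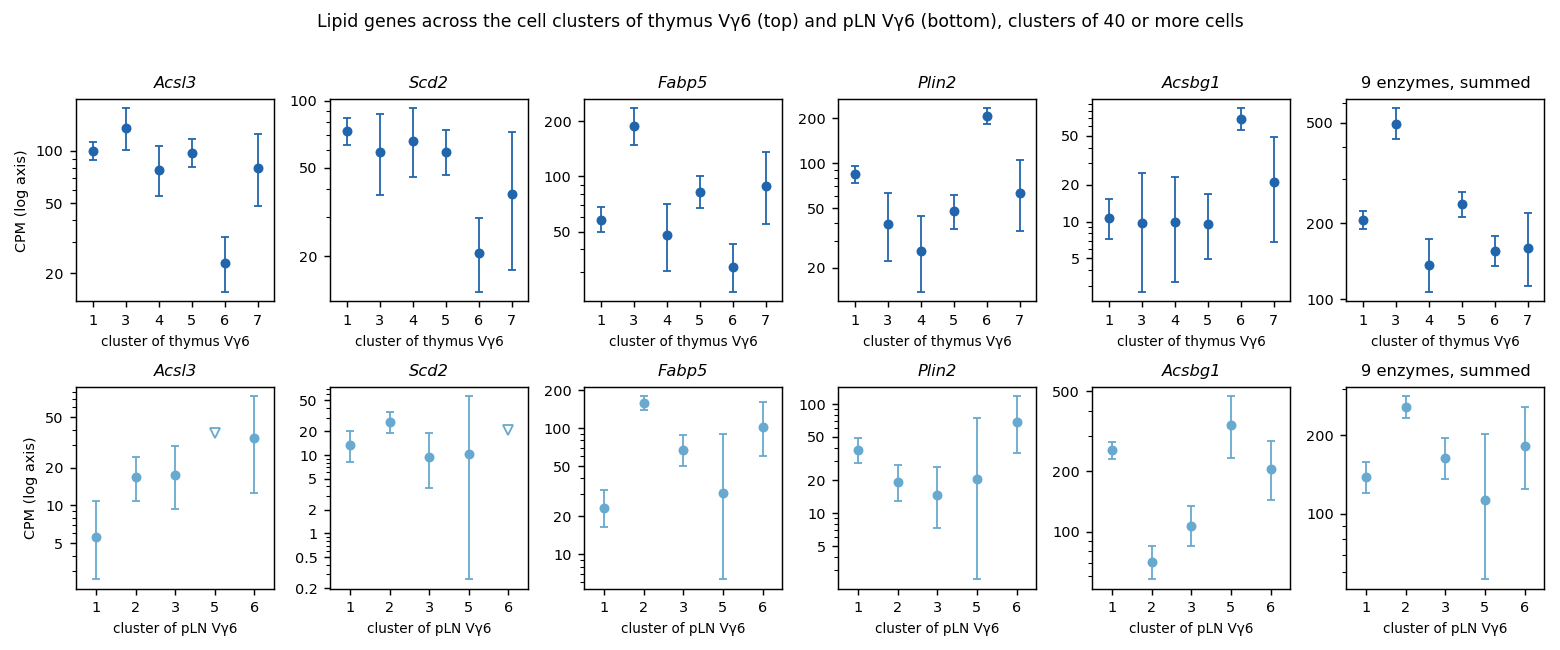
Level in CPM (log axes, each panel its own range) of 5 members and of the 9 summed enzymes across cell clusters of thymus Vγ6 (top) and pLN Vγ6 (bottom) with 40 or more cells, with 95% Poisson intervals and open triangles for 0 UMIs at their upper bound. In thymus, cluster 6 is highest for Plin2 (207 CPM) and Acsbg1 (68.3) and lowest for Acsl3 (22.8) and Scd2 (20.6), and cluster 3 is highest for Fabp5 and the enzymes.

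In pLN Vγ6, Acsbg1 and Fabp5 were highest in different cells. Cluster 1, 924 cells led by Il7r, Tcp11l2 and Gab3, held Acsbg1 at 254 CPM (230 to 281) against 99.1 in the rest, and Fabp5 at 23.3 (16.4 to 32.1) against 123. Cluster 2, 247 cells led by Batf3, Cdca7 and Hells with a median of 4493 UMIs, held Fabp5 at 160 (140 to 181) against 41.5, the 9 enzymes at 257 (232 to 283) against 147, and Acsbg1 at 70.6 (58.0 to 85.1) against 209. The dividing cells showed the same split, with Acsbg1 at 136 CPM in dividing and 249 in the other cells, and the enzymes at 199 and 139. The dendritic list, mostly Cd74 and H2-Ab1, was at 518 CPM in skin Vγ6, 108 in thymus Vγ6 and 1301 in pLN Vγ6, with 3, 1 and 1 of its 8 genes at 0 and Cd209a at 0 in each. Within pLN Vγ6 it was at 1879 in cluster 2 and 558 in cluster 1. Its part in the Fabp5 level of cluster 2 was not tested.

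Skin Vγ4 over skin Vγ6 compares the receptor subsets within 1 tissue. Its 3 called members were Apoe, 111-fold (30.6 to 919) higher from 541 and 2 UMIs, Scd1, at least 9.99-fold higher when the 0 UMIs of skin Vγ6 are set to the floor of 3 counts beside 73 in skin Vγ4 (the exact interval begins at 7.92), and Srebf2. Apoe and Scd1 sat in a few barcodes. Of the Apoe UMIs, 170 were in 1 cell and 396 in the top 5, and of the Scd1 UMIs 64 were in 1 cell. That cell also held 62 of the library's 68 UMIs of the sebocyte list, of which Awat2 and Mc5r were at 0.

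Those Apoe-rich barcodes formed a cluster of their own. Cluster 5 of skin Vγ4, 8 cells with a median of 6625 UMIs against 1455 in the library, had 6 of 7 keratinocyte markers and was led by S100a8, Serpinb2 and Ly6d, with Krt14 among its top 10, and is keratinocyte-like. It held 469 of the 541 Apoe UMIs, 7766 CPM of Apoe, 1093 of Scd1, 662 of Msmo1, 430 of Plin2, 381 of Fabp5 and 2069.8 of the 9 cholesterol synthesis enzymes. The keratinocyte list was at 1089.9 CPM in skin Vγ4, with 1 of 7 genes at 0, and 260 in skin Vγ6, with 3 of 7 at 0. With these 8 cells left out Apoe was 15.3-fold (4.07 to 128) higher, at 38.4 against 2.52 CPM, Scd1 had 7 UMIs and lost its call, and Srebf2 was 2.33-fold (1.18 to 5.13) higher. The summed enzymes became 1.16 (0.961 to 1.41), with 217 CPM in skin Vγ4 and 187 in skin Vγ6. The 72 Apoe UMIs then left in skin Vγ4 lay in cells with under 3 each. The neutrophil list, mostly S100a8 and S100a9, was at 5762 CPM in cluster 5 and 12.1 to 35.8 in clusters 1 to 4. In skin Vγ6 that list was at 0. The source of the Apoe UMIs outside cluster 5 was not tested, so the 15.3-fold ratio does not show which cells made them.

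Of the pathway lists in the same comparison, 0 of 13 measured fatty acid genes were called in either direction, and 4 of 14 cholesterol genes were higher and 0 lower, beside 4.26% and 3.18% of all genes. These counts include the 8 keratinocyte-like cells of skin Vγ4 and were not recomputed without them. The ratios that follow include those cells as well. Among them were Soat1 at 2.56-fold (1.41 to 5.01), Mvk at 2.70-fold (1.21 to 7.08) and Sc5d, a sterol desaturase, at 2.29-fold (1.28 to 4.38). These named genes rested on 7 to 14 UMIs in skin Vγ6, and each lost its call under 3 to 5 alternatives.

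The authors' deposited table of mean expression in 8 Vγ6 clusters, named Skin, Thy_1 to Thy_5, pLN_1 and pLN_2, splits the tissues further. It comes from the authors' own cells and clusters, whose overlap with the kept cells was not analysed here, and so is no independent measurement. It lists 28 of the 33 members, without Cd36, Lpl, Fabp4, Fads2 and Scd1. Thy_5 was the highest cluster for 14 of the 28, Thy_4 for 5 and Thy_3 for 3, pLN_1 and pLN_2 for 2 each, and Skin and Thy_2 for 1 each. Of all 10721 genes in the authors' deposited table, 17.3% were highest in Thy_5, 12.2% in Thy_4, 10.9% in Thy_3, 16.1% in pLN_1, 14.3% in pLN_2, 14.98% in Skin and 5.17% in Thy_2. In units where all genes of a cluster sum to 10000, Acsbg1 had the authors' mean of 0.097 in Skin, 0.761 in Thy_2, 0.042 in Thy_5, 2.40 in pLN_1 and 1.33 in pLN_2.

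In the same authors' table Plin2 was highest in Thy_2 at 2.06, and Acsl3 in Thy_5 at 1.27 and Thy_1 at 1.07, with 0.164 in Thy_2. Scd2 peaked at 0.775 in Thy_3, and Fabp5 at 1.16 in Thy_5. The authors' deposited natural log fold change against other cells was 0.932 for Acsbg1 in pLN_1, 0.715 for Plin2 in Thy_2, 0.523 for Acsl3 in Thy_1 and 0.461 for Fabp5 in Thy_5.

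**Figure D4:**
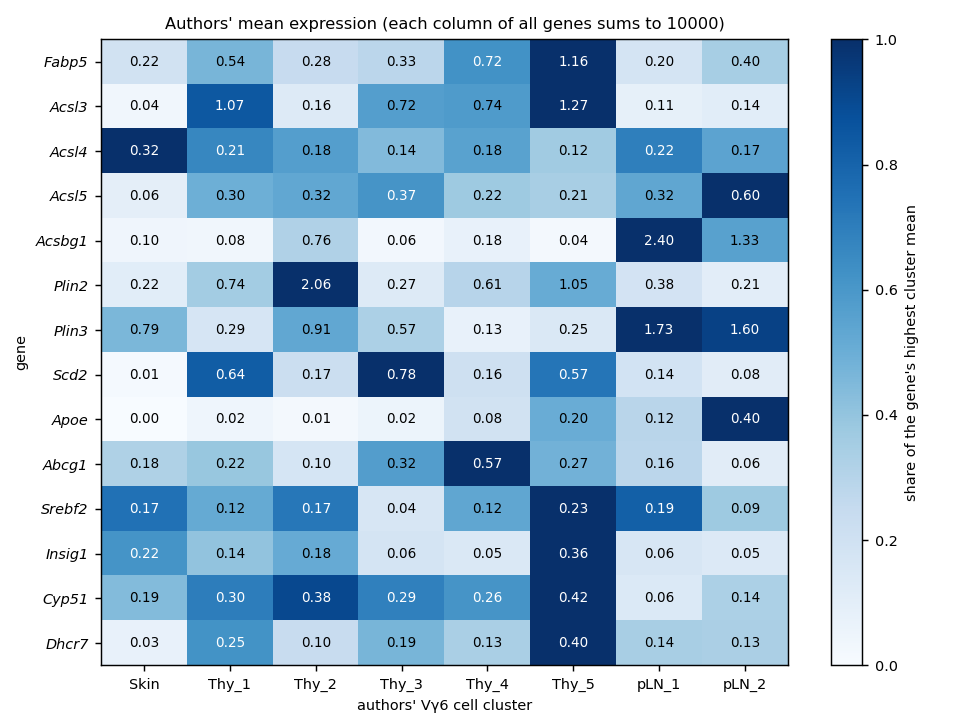
The authors' mean expression of the 14 called members in their table (rows) in 8 Vγ6 clusters (columns), with the deposited values printed and the colour giving each value as a share of the gene's highest cluster. Plin2 and Acsl3 peak in different thymus clusters, at 2.06 in Thy_2 and 1.27 in Thy_5, and Acsbg1 in pLN_1 at 2.40.

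The pooled library holds Vγ6 cells of the same 3 tissues, each from a different mouse line, so tissue and line cannot be told apart within it. Its cells were assigned to the Vγ6 tissue library whose profile of 6092 other genes they fitted best. In the pool 653 cells fitted skin best, 754 thymus and 599 pLN. This describes profiles and assigns no tissue. Because the cells were grouped by these library profiles, the pool's values are given as a description.

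Cells fitting skin, thymus and pLN best held Acsbg1 at 40.3, 26.5 and 285 CPM, Plin2 at 39.0, 145 and 71.8, and Scd2 at 6.49, 49.1 and 11.6. Acsl3 was at 10.4 CPM in cells fitting skin, 24.1 in those fitting thymus and 1.06, or 1 UMI, in those fitting pLN. Acsbg1 in skin over thymus was at 1.52 (0.898 to 2.55), against 0.438 in the libraries. The pool intervals of Acsl4 in skin over pLN and of Fabp5, Cyp51 and Dhcr7 in skin over thymus also held 1. Sizes differed from the libraries: the pool ratio of Acsl3 in skin over thymus was 0.431 (0.171 to 0.961), against 0.0760 in the libraries, and Abcg1 in skin over pLN was 1.01 (0.592 to 1.72), against 2.08. Apoe in the pool was at 160 CPM in cells fitting pLN best, beside 370.5 CPM of the macrophage or monocyte list, and at 29.9 and 15.3 in those fitting skin and thymus, beside 103 and 9.65.

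**Figure D5:**
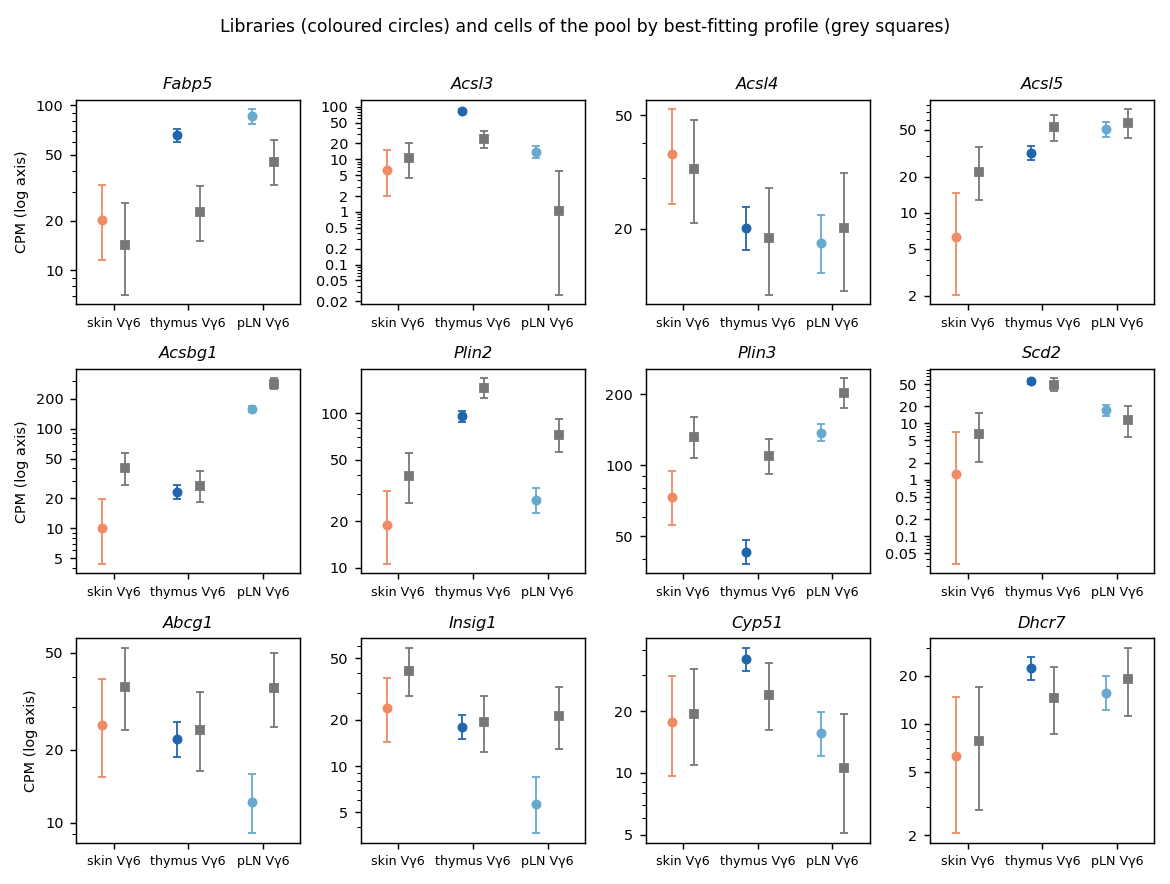
Level in CPM (log axes, each panel its own range) of the 12 members called between Vγ6 tissues, in the skin, thymus and pLN libraries (coloured circles) and in cells of the pool by best-fitting profile (grey squares), with 95% Poisson intervals. Plin2 and Scd2 are highest over thymus and Acsbg1 over pLN in both sets, while Abcg1 of the pool is at 36.4 CPM over skin and 35.9 over pLN.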

How the data were processed

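Sorted Vγ4 and Vγ6 γδ T cells were measured in 5 libraries. The deposited matrices hold raw UMI counts, not normalized. Cell Ranger 2.0, Seurat 2.3 and mm10 are named per the submitters' processing notes, without their roles. The authors' cluster means are in another unit that sums to 10000 per column. The authors' natural log fold changes were used as deposited (the log base was inferred from the means), and the authors' p-values, over cells, were not used. The authors' steps behind both tables are not given in the sources used here.

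Barcodes with at least 200 genes and at most 10% mitochondrial UMIs were kept, with no doublets removed. The UMIs of all kept cells of a library were added up and scaled to CPM. Ratios carry exact conditional binomial 95% intervals and levels exact Poisson ones (scipy 1.17.1). They cover counting error only. A count of 0 was bounded by 3 counts. Log2 values use a pseudocount of 1 CPM. Calls ran over all genes. Every member called in at least 1 comparison was named, and of the pathway lists at most 4 called genes per comparison and list, of which some are not reported here. Each library was clustered in scanpy 1.11.5 (Leiden resolution 0.5) without the members and pathway genes, and pooled cells were assigned by multinomial likelihood. Scripts were tested on simulated data. Members and lists were chosen with earlier results of these data known. Alternatives covered scaling, cell filters, thinning to 800 UMIs (cells with fewer were left out), cells left out, CPM minimum and fold. Genome positions are from the GENCODE annotation of GRCm38, the build also called mm10.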

Additional observations from a re-analysis of the deposited data

How the results depend on the processing

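The counts of members called and the summed enzyme ratios were recomputed under every alternative, and 106 of those values stayed within 1.5 times the reported count or within its counting interval, while 38 moved. Of values for single genes, 581 kept their call, 81 lost it and 1 changed sign, Insig1 in skin Vγ6 over pLN Vγ6, whose log2 ratio was -2.84 under the stricter cell filter. That sign comes from the pseudocount: skin Vγ6 then held 0 UMIs, which allows 15.4 CPM, against 6.14 CPM in pLN Vγ6. Members higher in skin Vγ6 over pLN Vγ6 numbered 0 under the stricter filter and 0 at a minimum of 50 CPM, and those lower 5 with Cd163l1-positive cells only and 6 with no CPM minimum. The summed ratio there was 1.20 with median-of-ratios factors, 1.19 as a mean over cells, 1.42 thinned, 1.29 without other cell types, 1.30 without dividing cells and 1.33 without deep barcodes. In thymus Vγ6 over pLN Vγ6 it was 1.28 as a mean over cells, 1.49 thinned, 1.31 without other cell types, 1.44 without deep barcodes and 1.02 in Cd163l1-positive cells. In skin Vγ6 over thymus Vγ6, members higher numbered 2 with median-of-ratios factors and in Cd163l1-positive cells, 1 as a mean over cells, thinned, without other cell types, without dividing cells and with no CPM minimum, and 3 at a fold of 1.5, against 0 reported. Those lower were 4 under the stricter filter and at 50 CPM, and the summed ratio was 1.08 without dividing cells. In skin Vγ4 over skin Vγ6, members higher numbered 6 with TMM factors and at a fold of 1.5, 5 without dividing cells and with no CPM minimum, and 1 thinned and at 50 CPM, and 1 was lower under the stricter filter. All genes called changed with the setting too. Those higher in this comparison were 268 of 5225 with TMM factors, 365 of 4973 at a fold of 1.5 and 346 of 13481 with no CPM minimum, against 212 of 4973. The summed ratio there was 1.80 under the stricter filter, 1.18 thinned, 1.15 without other cell types, 1.17 without deep barcodes and 1.16 without the keratinocyte-like cluster, an alternative chosen after seeing the data. The causes were not tested. The stricter filter left 142 of 687 skin Vγ6 cells. No paired analysis was possible because each group has 1 library, and for the same reason no replicate could be left out. Depth limits skin Vγ6 most: its called members between tissues rest on 1 to 29 UMIs there.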

Other observations

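Clusters of the pooled library, made without the members, gave values outside the comparisons above. Its cluster 1, 591 cells led by Ly6a, Serpine2 and Calca, held Plin2 at 206 CPM, and cluster 3, 423 cells led by BC018473, Acsbg1 itself, Lpar6 and Tns4, held Acsbg1 at 423 CPM. Cluster 5, 356 cells led by Gzma, Sox4 and Sh2d1a, held Scd2 at 90.6 and Acsl3 at 43.7 CPM and Acsbg1 at 1 UMI. Cluster 7, 38 cells led by Ctla2a, Mest and Fermt2 with a median of 782 UMIs, held the 9 cholesterol synthesis enzymes at 795 CPM, from 28 UMIs. Cluster 6, 19 cells led by Cd74, H2-Aa and H2-Ab1, had 7 of 9 macrophage or monocyte, 5 of 8 dendritic and 5 of 5 measured B cell markers and was left unnamed, with Apoe at 1843 CPM, 84 of the pool's 194 UMIs, and Fabp5 at 307 CPM.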
